A study of Homo sapiens with 12 samples.

Results

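Glycolysis splits glucose into pyruvate in the cytosol, and 10 genes for enzymes of its upper and middle steps were followed here in liver cancer cells with and without METTL5. They were the hexokinases HK1 and HK2, glucose-6-phosphate isomerase (GPI), the phosphofructokinases PFKL and PFKP, the aldolases ALDOA and ALDOC, glyceraldehyde-3-phosphate dehydrogenase (GAPDH), phosphoglycerate kinase (PGK1) and phosphoglycerate mutase (PGAM1). The genes were taken by name from the deposited table, 1 row each, and are 10 of its 58884 genes. For 9 of the 10 the row held values of its own and for HK2 it did not.

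Hexokinases trap glucose in the cell as its phosphate, GPI turns that into fructose phosphate, and phosphofructokinase commits it to breakdown at the main control point of the pathway. Aldolase cuts the sugar, GAPDH oxidises the fragments and yields NADH, PGK1 makes ATP, and PGAM1 shifts the remaining phosphate ahead of enolase and pyruvate kinase. Liver cancer cells often carry other isozymes than adult hepatocytes and send much of their pyruvate to lactate. Many genes of the pathway are textbook targets of the hypoxia factor HIF1 and of MYC.

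RNA sequencing compared METTL5 knockout (KO) with wild type (WT) in HCC-LM3, a metastatic hepatocellular carcinoma line, and in Huh-7, a hepatocellular carcinoma line with many hepatocyte traits. METTL5 is a methyltransferase that puts m6A into 18S ribosomal RNA. The groups were HCC-LM3 KO, HCC-LM3 WT, Huh-7 KO and Huh-7 WT, with 3 libraries each. KO cells had been infected with a METTL5 sgRNA, and WT cells of either line had no treatment. No control guide, clone or culture is named, so loss of METTL5 and effects of the infection cannot be told apart, and p-values measure the spread between libraries, which may be technical.

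The libraries held 17495280 to 26415554 counts. METTL5 had 0 counts in all 6 KO libraries, at least 86.9-fold lower than WT in HCC-LM3 and 27.2-fold lower in Huh-7, against a floor of 3 counts per library. CPM here are counts scaled to the library size times a trimmed-mean (TMM) factor. The factors were 0.491 to 0.510 in Huh-7 KO, which raised its CPM, and 1.06 to 1.10 in Huh-7 WT, which lowered its CPM. Of 9 hepatocyte markers, Huh-7 KO and Huh-7 WT had all 9 at a mean of at least 1 CPM. HCC-LM3 KO and HCC-LM3 WT had 3 of 9, with ALB at 0 in HCC-LM3 KO and at a mean of 0.0102 CPM in HCC-LM3 WT. Their summed level was 3051 to 3301 CPM in HCC-LM3 KO and 2282 to 3014 in HCC-LM3 WT, against 55804 to 57759 in Huh-7 KO and 24764 to 25808 in Huh-7 WT. In Huh-7, by the test on counts, the keratins KRT8 (25509 CPM in KO, 8838 in WT) and KRT18 (10730.0 in KO, 3099 in WT) were called higher in KO, with APOA1, TTR and SERPINA1. The other 4 were called lower, among them ALB (286 CPM in KO, 806 in WT) and AFP (665 in KO, 1934 in WT). In mean TPM (counts scaled by gene length and library), KRT8 (5113 in KO, 5424 in WT), APOA1 (2641 and 3226) and SERPINA1 (2262 and 4236) were lower in Huh-7 KO. KRT18 was higher there (2801 and 2540 TPM), and TTR overlapped (990 and 1011 TPM). Of 4 leukocyte markers, PTPRC and CD3E did not reach the level needed for a test, while CD68 averaged 54.9 CPM in HCC-LM3 KO, 41.2 in HCC-LM3 WT, 89.1 in Huh-7 KO and 45.1 in Huh-7 WT. CD14 averaged 8.84 CPM in Huh-7 KO and 3.55 in Huh-7 WT, and under 1 CPM in HCC-LM3. In mean TPM, CD68 (18.6 in KO, 29.5 in WT) and CD14 (2.72 in KO, 3.76 in WT) were lower in Huh-7 KO. The leukocyte sum was 52.8 to 56.4 CPM in HCC-LM3 KO and 37.8 to 46.0 in HCC-LM3 WT, against 96.2 to 99.9 in Huh-7 KO and 45.8 to 52.6 in Huh-7 WT. Summed fibroblast markers were at 35.0 to 37.2 CPM in HCC-LM3 KO, 39.8 to 44.0 in HCC-LM3 WT, 8.13 to 10.4 in Huh-7 KO and 26.7 to 30.7 in Huh-7 WT, and the endothelial sum was at most 13.9 CPM. How far these differences enter the results was not tested.

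The HK2 row could not be read as hexokinase mRNA. Its 12 counts and 12 TPM values stood also in the rows of 5.8S ribosomal RNA, a short RNA of the large ribosomal subunit. For HCC-LM3 the values stood in the same libraries as in the ribosomal rows. For Huh-7 the KO and WT values were exchanged, each replicate number keeping its own. Altogether 8 rows shared these values, namely 4 ribosomal RNA rows and the protein-coding HK2, PKM, SLC2A1 and ADH4, with both lines exchanged in the rows of the pyruvate kinase gene PKM and the glucose carrier gene SLC2A1. Among 16016 rows with a count above 20 there were 3 such sets, and the others held 2 rows each. The ADH4 row held them in the order of the ribosomal rows. Which row they were measured on was not tested. The sequence of one ribosomal row is printed to show how short that RNA is, RNA5-8SN1, at chr21:8439823-8439975 on the plus strand of GRCh38 (GENCODE 29), and the other 3 ribosomal rows have the same 153 bases.
RNA5-8SN1: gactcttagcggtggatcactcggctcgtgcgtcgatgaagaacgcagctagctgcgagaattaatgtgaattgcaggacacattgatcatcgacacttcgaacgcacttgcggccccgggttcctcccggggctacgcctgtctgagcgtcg

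The deposited HK2 row read 786, 1580.1 and 1578 TPM in HCC-LM3 KO and 724, 228 and 613 TPM in HCC-LM3 WT. For Huh-7 it read 269, 314 and 1372 TPM in KO and 2759, 2997 and 2543 TPM in WT. Its counts were 42.8, 65 and 89.5 in HCC-LM3 KO and 39.4, 8.75 and 19.4 in HCC-LM3 WT, with 26.9, 22.2 and 79.6 in Huh-7 KO and 189.9, 167 and 146 in Huh-7 WT. So few counts cannot give so many TPM over a gene whose length is listed as 5772 bases. The counts were 0.000531 of what the TPM and the length call for (median over libraries), the lowest of 15998 genes, whose median was 1.00. The source of these values was not tested, HK2 was left out of the results, and PKM, SLC2A1 and ADH4 are given no result either.

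**Figure D1:**
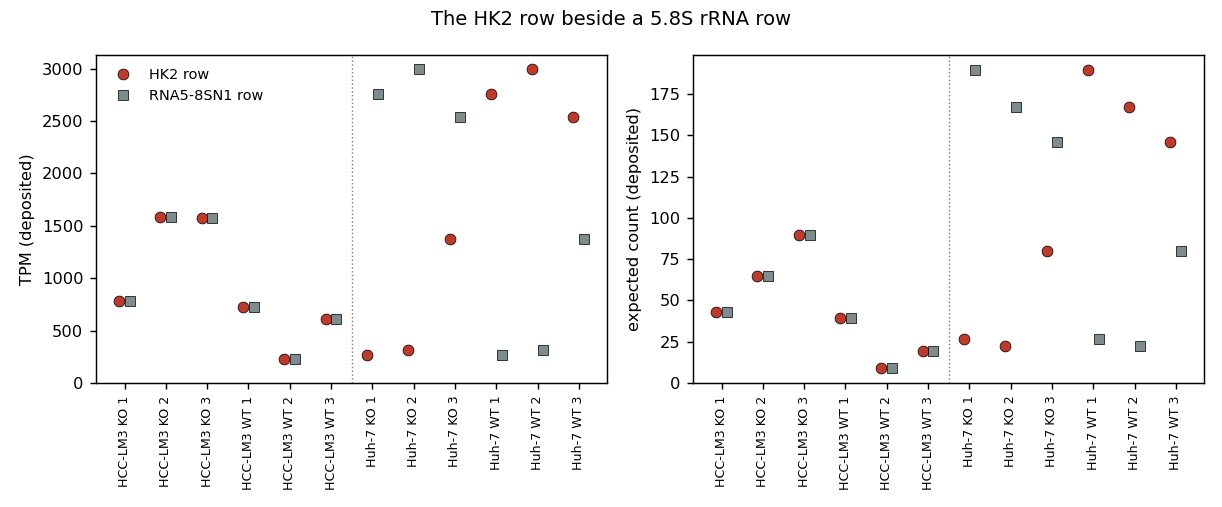
Deposited TPM (left) and expected counts (right) of the HK2 row (circles) and of the RNA5-8SN1 row (squares) in each of the 12 libraries, KO before WT within a line. The symbols fall on the same values in the 6 HCC-LM3 libraries, and in Huh-7 the 3 KO values of one row are the 3 WT values of the other.

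Promoter sequence was found in RefSeq for all 10 genes, in 22 windows of 250 bases before an annotated start. The core of the hypoxia response element, ACGTG or GCGTG on either strand, was in 13 of the 22 windows and in at least 1 window of 9 of the 10 genes. Among all 35116 windows of this length, 43.2% held it, and a letter match is not a bound site. The 10 genes had 1 to 7 windows each, and the share of all genes with a match in any window was not counted. Windows of PGK1, PFKL and PFKP are shown because they differ in the number of matches, 3, 1 and 0. Each is the gene's RefSeq window nearest a GENCODE 29 start, and of the other 3 PFKP windows 1 has no match, 1 has 1 and 1 has 3. They are cut where a GENCODE 29 exon begins, and come from GRCh38.p14 at chrX:78103998-78104173, chr21:44299803-44300050 and chr10:3068377-3068626, all on the plus strand. Capitals mark the core or its reverse complement, at −211, −202 and −183 bases from the start in PGK1 and at −164 in PFKL.
PGK1: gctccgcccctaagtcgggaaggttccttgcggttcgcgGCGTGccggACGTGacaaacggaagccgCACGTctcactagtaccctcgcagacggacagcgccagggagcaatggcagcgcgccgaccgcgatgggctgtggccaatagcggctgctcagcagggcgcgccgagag
PFKL: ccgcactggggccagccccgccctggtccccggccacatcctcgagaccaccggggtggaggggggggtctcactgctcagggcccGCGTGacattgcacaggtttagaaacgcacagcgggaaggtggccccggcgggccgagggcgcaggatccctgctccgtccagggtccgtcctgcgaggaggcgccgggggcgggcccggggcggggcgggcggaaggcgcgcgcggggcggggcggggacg
PFKP: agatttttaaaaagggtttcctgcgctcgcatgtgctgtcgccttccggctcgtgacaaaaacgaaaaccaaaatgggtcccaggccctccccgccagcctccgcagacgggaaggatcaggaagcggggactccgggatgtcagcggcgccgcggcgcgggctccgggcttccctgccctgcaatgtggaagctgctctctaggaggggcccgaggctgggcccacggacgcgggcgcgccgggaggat

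Levels per length (TPM) spanned a wide range among the enzymes. In HCC-LM3 mean TPM ran from GAPDH (13907 ± 445 in KO, 12486 ± 49.4 in WT) through PGAM1, PGK1, PFKP, ALDOC and PFKL down to HK1 (1.19 ± 0.247 in KO, 3.96 ± 0.347 in WT, SD, n = 3). ALDOA stood above GPI in KO and below it in WT, without overlap. PGAM1 and PGK1 overlapped in KO libraries but not in WT libraries, and ALDOC and PFKL overlapped in WT libraries but not in KO libraries. In Huh-7 the order was GAPDH (8798 ± 66 in KO, 7722 ± 388 in WT), ALDOA, GPI, PGAM1, PFKL, PGK1, ALDOC, PFKP and HK1, the same in KO and WT, with no overlap between neighbours of the first 8. PFKP was at 0.12 ± 0.0529 TPM in Huh-7 KO and 0.18 ± 0.0265 TPM in Huh-7 WT, so Huh-7 cells had almost no platelet-type phosphofructokinase.

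In HCC-LM3, on counts after trimmed-mean (TMM) scaling, METTL5 KO cells had more mRNA for most of the steps from phosphofructokinase to PGK1 and less HK1. The calls of HK1 and ALDOA held in all 25 alternatives run. Those of PFKL and ALDOC ended in 3 each, and those of PFKP, GAPDH and PGK1 in 9, 6 and 11. Of the 9 enzymes, PFKL, PFKP, ALDOA, ALDOC, GAPDH and PGK1 were higher in KO, HK1 was lower, and GPI and PGAM1 did not pass the test. Over all 16537 genes tested, 26.8% were called, 14% higher and 12.9% lower. The median log2 fold change of the 9 was 0.32, beside 0.00 for all genes. By GC content, the median of all genes was −0.22 at 40 to 45% (the bin of PGK1) and 0.11 at 50 to 55% (HK1, GPI, ALDOA, PGAM1). It was 0.21 at 55 to 60% (PFKP, ALDOC, GAPDH) and 0.30 over 60% (PFKL). The values that follow are CPM after TMM scaling unless TPM is written. Calls are from edgeR's quasi-likelihood test with p adjusted over all tested genes by the Benjamini-Hochberg method, at 0.05.

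HK1, the hexokinase of most tissues, lies at chr10:69269984-69401884 (GENCODE 29, GRCh38, as for the positions that follow). Its levels were 1.87, 2.59 and 1.91 CPM in HCC-LM3 KO and 6.72, 6.48 and 5.59 CPM in HCC-LM3 WT. Every KO library was below every WT library. The log2 fold change was −1.56 (SE 0.22, adjusted p = 7.14e-06), and it was called in all 25 alternatives run. Raw counts were 63.1 to 75.1 in KO and 183 to 248 in WT, so this enzyme was measured on few reads. GPI (chr19:34359480-34402413), which interconverts the glucose and fructose phosphates, had 2759.6, 3098 and 2325 CPM in HCC-LM3 KO and 3622, 2621 and 3588 CPM in HCC-LM3 WT. The groups overlapped in counts, and the difference of −0.26 did not pass (SE 0.12, adjusted p = 0.0882). GPI was called lower in 6 of 25 alternatives. Among them were library totals (−0.41, adjusted p = 0.0112) and the GC and length offsets (−0.38, adjusted p = 0.0483), both in edgeR.

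PFKL (chr21:44300051-44327376), the liver-type phosphofructokinase, reached 235, 259 and 255 CPM in HCC-LM3 KO, against 179, 155 and 151 CPM in HCC-LM3 WT. All KO libraries were higher, and with TMM this was the largest called rise among the 9 in this line, at 0.63 (SE 0.097, adjusted p = 1.93e-05). With the GC and length offsets it was 0.35, below the 0.47 of ALDOA. PFKP (chr10:3066333-3137712), the platelet-type enzyme, had 469, 492 and 489 CPM in KO and 453, 348 and 362 CPM in WT. WT replicate 1 came close to the KO libraries without overlap. Its rise of 0.32 (SE 0.099, adjusted p = 0.0156) ended in 9 of 25 alternatives, among them library totals (0.17), the GC and length offsets (0.12), and leaving out WT replicate 2 (0.24) or 3 (0.26) or KO replicate 2 (0.30) or 3 (0.30).

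ALDOA (chr16:30064164-30070457), the main aldolase outside liver, had 2044, 2165 and 2126 CPM in HCC-LM3 KO and 1617, 1290.4 and 1309 CPM in HCC-LM3 WT. No KO library overlapped WT, and the rise of 0.59 (SE 0.1, adjusted p = 7.4e-05) was called in all 25 alternatives. ALDOC (chr17:28573115-28577264), the aldolase best known from brain, stood at 146, 163 and 153 CPM in KO and 128, 103 and 125 CPM in WT. Its values did not overlap either, with a log2 difference of 0.38 (SE 0.092, adjusted p = 0.00257), which was 0.28 (adjusted p = 0.054) without WT replicate 2.

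GAPDH (chr12:6533927-6538374) was at 9613, 9922 and 9918 CPM in HCC-LM3 KO and 8825, 7319.9 and 7252 CPM in HCC-LM3 WT. The groups did not overlap and the difference was 0.33 (SE 0.1, adjusted p = 0.0175). PGK1 (chrX:77910739-78129296), which recovers the ATP spent at the start of the pathway, had 1938, 1908 and 1867 CPM in KO and 1679, 1519 and 1507 CPM in WT, a log2 difference of 0.28 (SE 0.095, adjusted p = 0.0273). Both rises were small, and PGK1 overlaps ATP7A, PGAM4 and AL356235.1 in the annotation, with no strand setting known for the counting. The GAPDH call ended with the GC and length offsets (0.14) and without KO replicate 1 (0.34), 2 (0.31) or 3 (0.32) or WT replicate 2 (0.28) or 3 (0.27), and the PGK1 call in 11 of 25 alternatives, among them library totals (0.13) and each of those 5 libraries left out (0.24 to 0.29).

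PGAM1 (chr10:97426160-97433441) had 1071, 1055 and 1082 CPM in HCC-LM3 KO and 1021, 866 and 859.9 CPM in HCC-LM3 WT. KO libraries were all higher, but the difference of 0.22 did not pass (SE 0.097, adjusted p = 0.0878), and without WT replicate 1 it did, at 0.30 (adjusted p = 0.000467). Of the 9 enzymes, 7 were higher and 1 lower without overlap of KO and WT, beside 20.5% and 18.2% of all genes. The number called higher depended on single libraries: it was 7 without WT replicate 1, 2 without WT replicate 2, and 3 without WT replicate 3, KO replicate 2 or KO replicate 3. With the HK2 row counted in, 6 were called higher and 1 lower, of 10.

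**Figure D2:**
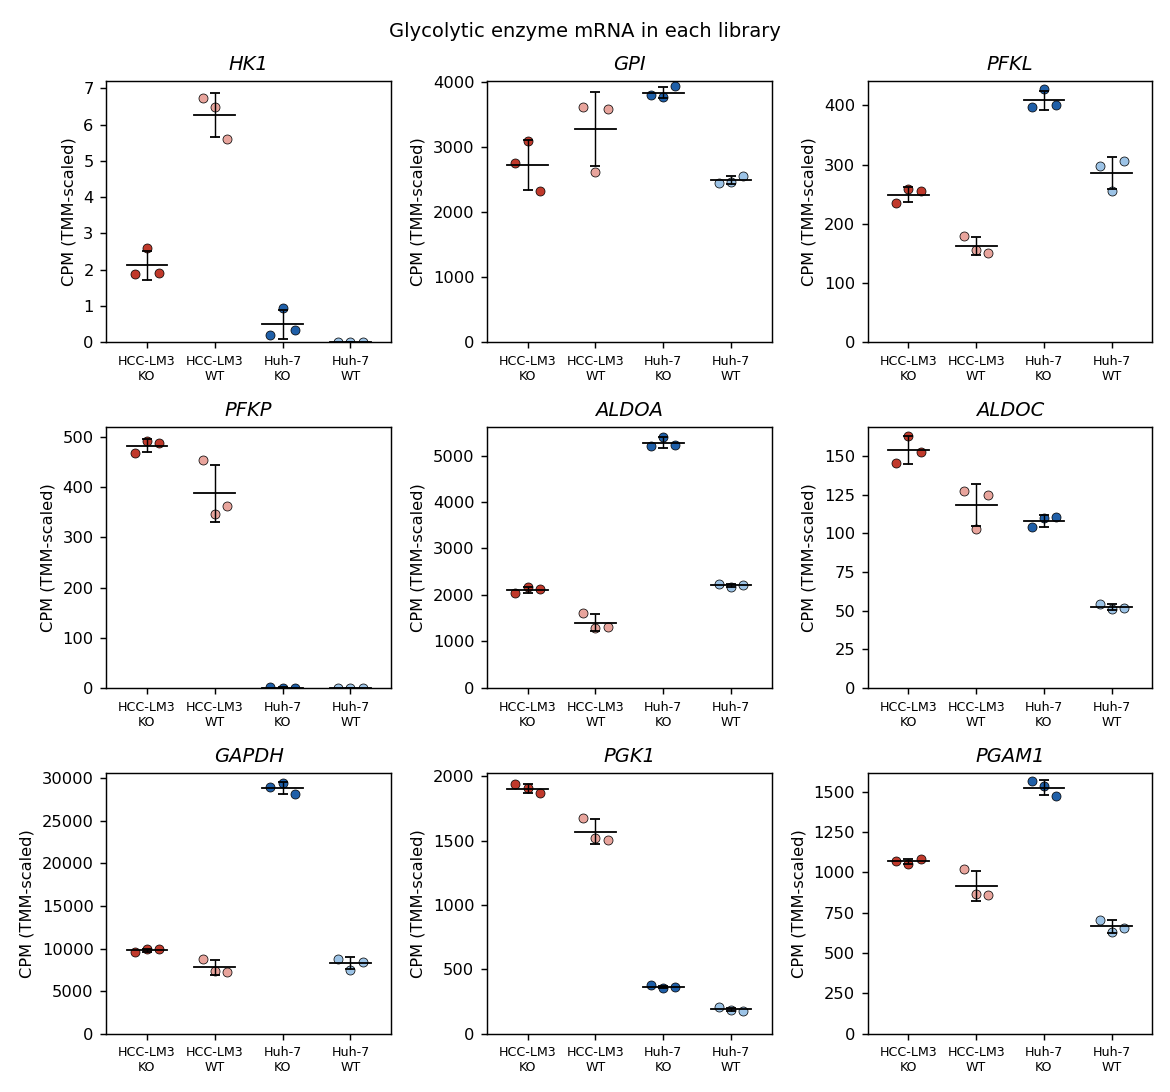
Level of each of the 9 enzymes in every library, in CPM after TMM scaling on linear axes that start at 0, with KO left of WT for each line. Points are libraries, lines are means and bars are SDs (n = 3). In HCC-LM3 HK1 is lower and ALDOA higher in KO without overlap, and in Huh-7 the 3 GAPDH values of KO average 28864 CPM, above the WT mean of 8266 CPM.

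In Huh-7, KO and WT differed far more widely: 75% of all genes tested were called, 31.7% higher and 43.2% lower. With TMM scaling, HK1, GPI, PFKL, ALDOA, ALDOC, GAPDH, PGK1 and PGAM1 were higher in KO, none of the 9 was lower, and PFKP did not pass. This direction depended on the scale: with library totals 3 of the 9 were called higher and 3 lower, and with TPM, tested as log2(TPM + 1) in limma, 1 was called higher and 6 lower. That log scale understates the change of genes at low TPM. After TMM scaling of the TPM, the direction was that of the TMM counts. GPI (0.38), ALDOA (1.05), ALDOC (0.81), GAPDH (1.61), PGK1 (0.61) and PGAM1 (0.96) were then called higher in limma. PFKL (0.29), PFKP (0.15) and HK1 (0.20) did not pass there. GAPDH was called higher in Huh-7 KO in all 25 alternatives. The TMM factors were 0.491 to 0.510 in Huh-7 KO and 1.06 to 1.10 in Huh-7 WT, and all genes together had a median log2 fold change of −0.30 with TMM, −1.40 with library totals and −0.68 with TPM, beside 1.05 for the 9 with TMM.

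The scale of the Huh-7 values moved with gene length and GC content. Genes of up to 1000 bases had a median change of 1.42 (log2) and those over 8000 bases −2.32. Genes of up to 40% GC had −1.83 and those over 60% had 0.74. In HCC-LM3 the same GC bins had −0.38 and 0.30. The 9 enzymes are listed with lengths of 1348 bases (GAPDH) to 4812 bases (PGK1) and GC contents of 43.3% (PGK1) to 64.1% (PFKL), and the part of length and GC in each value was not tested beyond the offsets.

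HK1 had 2.28, 8.18 and 3.01 counts in Huh-7 KO and was listed at 0 counts in all 3 Huh-7 WT libraries. Every KO library had some reads and no WT library did, which puts KO at least 3.20-fold higher against a floor of 3 counts per library (adjusted p = 1.11e-05). This bound rests on KO replicate 2 and on the scaling: it was 1.73 without that library and 1.54 with library totals, and KO replicate 1 lay below 3 counts. The call ended with log2(TPM + 1) and with TMM-scaled TPM. HK1 remained below 1 CPM in Huh-7 KO as well. PFKP was almost as low, with 10, 4 and 5 counts in KO and 13, 9 and 10 in WT, and its difference of 0.57 did not pass (SE 0.43, adjusted p = 0.234).

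GPI had 3804, 3780.1 and 3940.3 CPM in Huh-7 KO, against 2447, 2474 and 2560.2 CPM in Huh-7 WT, a log2 difference of 0.62 (SE 0.12, adjusted p = 1.29e-05). In TPM the order turned round, with 592, 559 and 623 TPM in KO and 1158, 1216 and 1265 TPM in WT. The groups were apart on both scales, in opposite directions: −1.04 with TPM in limma (adjusted p = 8.23e-10), −0.49 with library totals (adjusted p = 0.000744), and 0.84 with the GC and length offsets (adjusted p = 5.26e-05). PFKL did the same, at 397, 427 and 401 CPM in KO and 297, 255 and 306 CPM in WT (0.51, SE 0.097, adjusted p = 1.67e-05). Its TPM values were 48.3, 51.6 and 49.8 in KO and 112, 101 and 114 in WT, −1.11 in limma (adjusted p = 5.47e-07). For PFKL the offsets left −0.12, which did not pass (adjusted p = 0.101).

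ALDOA stood at 5211, 5408 and 5220.4 CPM in Huh-7 KO and 2236, 2165 and 2224 CPM in Huh-7 WT, up by 1.26 (SE 0.1, adjusted p = 5.32e-13). Its rise was 0.15 with library totals (adjusted p = 0.0266) and 0.27 with offsets (adjusted p = 0.000472), and TPM gave −0.37 (adjusted p = 7.92e-07). ALDOC had 104, 109.9 and 111 CPM in KO and 54.5, 50.9 and 51.6 CPM in WT, with 1.05 (SE 0.097, adjusted p = 1.26e-11). That call did not hold with library totals (−0.06, adjusted p = 0.488) or with offsets (−0.13, adjusted p = 0.149), and TPM gave −0.57 (adjusted p = 1.78e-05). The sign of both aldolase values depended on the scale.

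GAPDH reached 28921, 29501 and 28170.0 CPM in Huh-7 KO, against 8832, 7502 and 8465 CPM in Huh-7 WT. All KO libraries lay far above WT, and the log2 fold change of 1.80 was, with TMM, the largest of the 8 that had counts in WT (SE 0.11, adjusted p = 2.3e-16). It was 0.69 with library totals (adjusted p = 3.37e-09), 0.36 with offsets (adjusted p = 1.51e-05) and 0.19 with TPM (adjusted p = 0.000465), and with offsets PGK1, GPI and PGAM1 had larger values. In TPM, GAPDH was at 8725, 8814 and 8854 TPM in KO and 8049.8, 7294 and 7823 TPM in WT. GAPDH was higher in KO on every scale, by an amount that the scale set. Its 62 pseudogene rows held 0.0147% as many counts as GAPDH itself.

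PGK1 had 375, 358 and 365 CPM in Huh-7 KO and 205, 183 and 178 CPM in Huh-7 WT (0.95, SE 0.097, adjusted p = 1.22e-10). PGK1 is the longest and least GC-rich of the 9, and with offsets its value was 2.22 (adjusted p = 1.41e-14), library totals gave −0.16 (adjusted p = 0.0279) and TPM −0.78 (adjusted p = 1.47e-07). PGAM1 was at 1565, 1537 and 1473 CPM in KO and 708, 633 and 655 CPM in WT (1.20, SE 0.099, adjusted p = 6.99e-13). It was 0.41 with offsets (adjusted p = 2.81e-06), 0.09 with library totals (adjusted p = 0.16) and −0.45 with TPM (adjusted p = 3.52e-07). Without overlap of KO and WT, 8 of the 9 were higher and 0 lower in CPM, beside 32.3% and 44.2% of all genes.

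**Figure D3:**
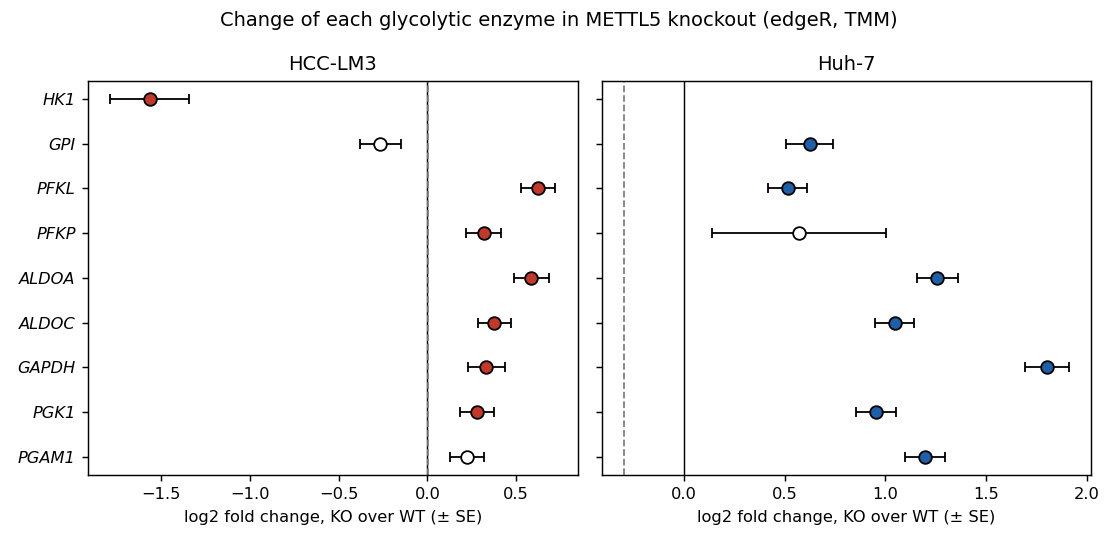
Log2 fold change of KO over WT for each enzyme in HCC-LM3 (left) and Huh-7 (right), with SE bars, from edgeR with TMM scaling. Filled points passed at an adjusted p under 0.05, the dashed line is the median of all genes (0.00 and −0.30), and HK1 is not drawn in Huh-7 because WT had no counts. GAPDH has the largest value in Huh-7, 1.80, and HK1 the lowest in HCC-LM3, −1.56.

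**Figure D4:**
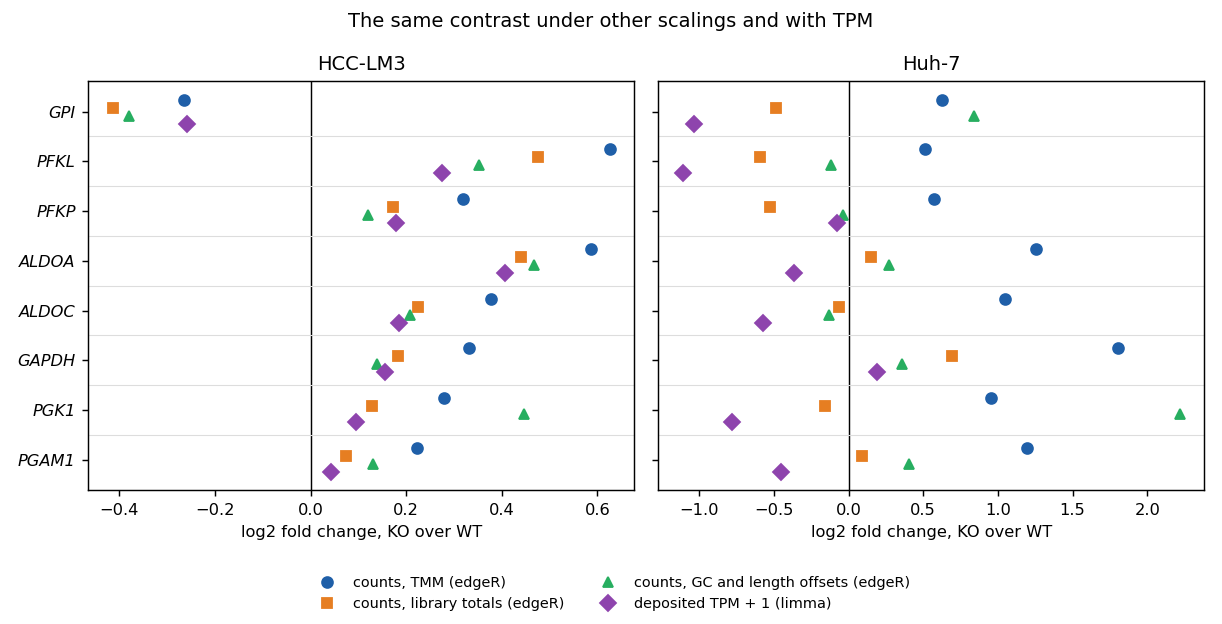
The same contrasts for 8 enzymes under counts with TMM, counts with library totals, counts with GC and length offsets, and deposited TPM plus 1, as log2 fold changes of KO over WT. In HCC-LM3 (left) the points of an enzyme share their sign, and in Huh-7 (right) they do so for GAPDH alone.

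Ratios between enzymes within a library do not depend on the library scale, but they do carry differences in length and GC content. Set against GAPDH in Huh-7, the log2 ratio of counts was lower in KO for all 7 of the other enzymes measured in both lines. KO and WT did not overlap. This direction was set in advance, because GAPDH had the largest TMM fold change of them in Huh-7, and the share among all genes was not counted. The ratio was lower by 0.55 for ALDOA, 0.61 for PGAM1, 0.76 for ALDOC, 0.85 for PGK1, 1.18 for GPI and 1.29 for PFKL. For PFKP it was lower by 1.34, on only 4 to 13 counts per library. With the GC and length offsets the difference from GAPDH was 1.86 for PGK1, 0.48 for GPI and 0.05 for PGAM1, higher in KO, and −0.09 to −0.49 for the other 4. Such ratios show unequal change only. In HCC-LM3, GPI and PGAM1 had lower ratios to GAPDH in KO (−0.60 and −0.11), PFKL and ALDOA had higher ones (0.29 and 0.26), and PFKP, ALDOC and PGK1 overlapped. The 9 enzymes together took 2.40% ± 0.0991 of counts in HCC-LM3 KO and 2.24% ± 0.111 in HCC-LM3 WT. In Huh-7 they took 2.01% ± 0.014 in KO and 1.52% ± 0.0548 in WT (SD, n = 3), of which GAPDH was 1.44% in KO and 0.887% in WT. Their share of TPM was 1.15% ± 0.00901 in Huh-7 KO and 1.15% ± 0.0394 in Huh-7 WT, and 2.14% ± 0.0638 in HCC-LM3 KO and 1.95% ± 0.0152 in HCC-LM3 WT.

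Of the 9 enzymes, GPI and PFKL had the widest range over libraries in counts relative to TPM and length. For GPI, counts relative to TPM and length ran from 0.411 to 0.690 over the 12 libraries, a 1.68-fold range, where ALDOA stayed within 0.842 to 0.888. In HCC-LM3, GPI had 2247, 2188 and 2219 TPM in KO and 2662, 2726 and 2572 TPM in WT. On this scale the groups were well apart and KO was lower (−0.26, adjusted p = 0.00374, limma), while the counts overlapped, and after TMM scaling of the TPM the difference was −0.10 (adjusted p = 0.489). PFKL had 128, 143 and 133 TPM in HCC-LM3 KO and 136, 101 and 100.03 TPM in HCC-LM3 WT. Here WT replicate 1 alone lay among the KO values, with a ratio of 0.803 where the other libraries had up to 1.18, and the rise did not pass in TPM (0.28, adjusted p = 0.075). Of the 6 rises called on counts in HCC-LM3, 2 were called in TPM, those of ALDOA (0.41, adjusted p = 6.72e-05) and GAPDH (0.15, adjusted p = 0.0136).

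**Figure D5:**
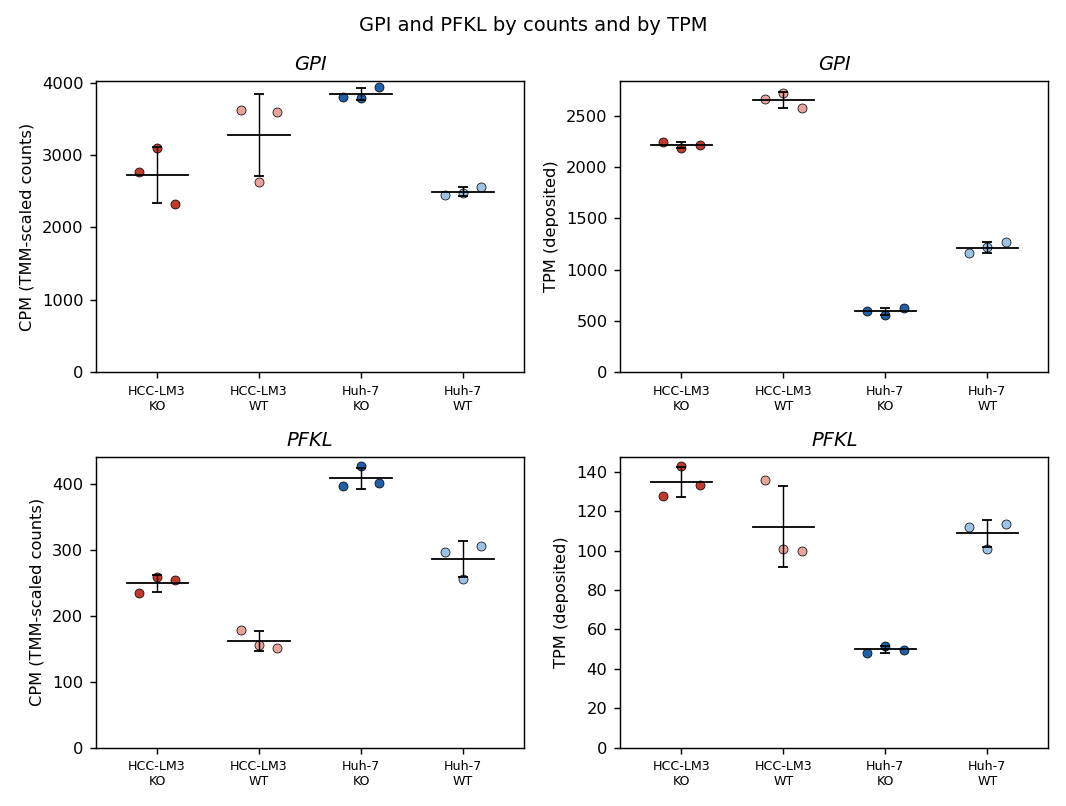
GPI (top) and PFKL (bottom) in every library as CPM after TMM scaling (left) and as deposited TPM (right), with means and SDs (n = 3), KO left of WT. GPI in HCC-LM3 overlaps in CPM and not in TPM, PFKL in HCC-LM3 overlaps in TPM and not in CPM, and both genes change sides in Huh-7.

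The size of the KO effect was then compared between the lines. With TMM scaling it was smaller or more negative in HCC-LM3 than in Huh-7 for 7 of the 9, beside 23.9% of all genes, and larger for none, beside 37.7%. The difference of log2 fold changes was −1.47 for GAPDH (SE 0.15, adjusted p = 2.05e-10), −0.97 for PGAM1 (SE 0.14, adjusted p = 1.99e-07) and −0.89 for GPI (SE 0.16, adjusted p = 1.63e-05). For PFKL and PFKP the differences of 0.11 and −0.25 did not pass (adjusted p = 0.51 and 0.654). The direction rested on the scale: with TPM, 7 were called the other way and 1 (HK1) this way, and with library totals 4 and 2.

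The WT lines differed in which isozymes they made. HCC-LM3 WT exceeded Huh-7 WT in HK1, GPI, PFKP, ALDOC, PGK1 and PGAM1 and was lower in PFKL and ALDOA, which is 6 higher and 2 lower of 9, beside 41.8% and 41% of all genes and 82.8% in either direction. PFKP showed the widest fitted difference, 453, 348 and 362 CPM in HCC-LM3 WT against 0.476, 0.394 and 0.506 CPM in Huh-7 WT, 9.71 on the log2 scale (SE 0.18, adjusted p = 3.39e-31). HK1 was at least 41.2-fold higher in HCC-LM3 WT, where Huh-7 WT had no counts. PGK1 differed by 3.05 (SE 0.1, adjusted p = 1.04e-23) and ALDOC by 1.18 (SE 0.095, adjusted p = 2.69e-13), and these 4 were called in each of 24 alternatives. GAPDH did not differ by the test (−0.08, adjusted p = 0.459), though TPM gave 0.69 (adjusted p = 2.05e-09). The lower PFKL (−0.82) and ALDOA (−0.65) of HCC-LM3 WT came to 0.03 and 0.06 with TPM, where they did not pass.

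Shares of each enzyme family in summed TPM describe its mRNA only, and those of the hexokinases lack HK2, whose level is unknown here. Without it, HKDC1, a hexokinase also found in liver tumours, held 98.3% ± 0.332 of hexokinase TPM in HCC-LM3 KO and 95.1% ± 0.605 in HCC-LM3 WT, and HK1 held 1.48% ± 0.341 and 4.76% ± 0.471 (SD, n = 3). In Huh-7 this family summed to 0.350 TPM in KO and 1.35 TPM in WT, too little to read shares. PFKP made up 55.8% of phosphofructokinase TPM in HCC-LM3 KO and 54.0% in HCC-LM3 WT, against 0.209% in Huh-7 KO and 0.131% in Huh-7 WT. PFKL held 86.9% ± 1.94 in Huh-7 KO and 79.4% ± 0.927 in Huh-7 WT without overlap, while the muscle-type PFKM held 12.9% and 20.4%. ALDOA was 94.5% of aldolase TPM in HCC-LM3 KO and 93.6% in HCC-LM3 WT, and 98.4% and 98.1% in Huh-7 KO and Huh-7 WT. An exact permutation test of 3 libraries against 3 cannot give a p under 0.1, so no share was tested.

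Around the 9 enzymes, 50 genes of the same and neighbouring pathways were counted in 6 lists, of which 41 had enough reads for a test. With TMM scaling, 12 of the 41 were higher and 6 lower in HCC-LM3 KO, with a median of 0.09, beside 14% and 12.9% of all genes. In Huh-7 KO 18 were higher and 13 lower, with a median of 0.15, beside 31.7% and 43.2%. Of the other glycolytic enzymes and isozymes, 2 of 12 were higher and 2 lower in HCC-LM3 KO, and 4 higher and 3 lower in Huh-7 KO. The enolases ENO2 and ENO3 were higher in both KO lines with TMM (0.55 and 0.43 in HCC-LM3, 0.80 and 1.05 in Huh-7). In TPM both were lower in Huh-7 KO without overlap, ENO2 at 0.467 in KO and 1.04 in WT and ENO3 at 8.66 in KO and 13.2 in WT. BPGM, which makes 2,3-bisphosphoglycerate, was lower in HCC-LM3 KO by −1.59 (adjusted p = 0.00689). The rows of ENO1 (−1.04 in HCC-LM3), TPI1 (1.17 in Huh-7) and LDHA (−1.78 in Huh-7) were called, but held at most 137, 238 and 72 counts per library. Counts relative to TPM and length were 0.0124, 0.435 and 0.214 for these rows, and their calls ended in 7, 13 and 16 alternatives.

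Regulators of phosphofructokinase moved in both directions. PFKFB3 and PFKFB4, which make its activator fructose 2,6-bisphosphate, were higher in HCC-LM3 KO (0.44 each), and each call ended in 3 alternatives. In Huh-7 KO, PFKFB3 was lower on each scale given (−1.33 with TMM, −2.0 with offsets, −2.52 with TPM), as was PFKFB2 (−2.82, −1.25 with offsets). PFKFB4 was 0.70 there with TMM and −0.65 with TPM. TIGAR, which breaks that activator down, was lower in HCC-LM3 KO (−0.50, ended in 7 alternatives) and in Huh-7 KO (−0.99 with TMM, 0.63 with offsets). In counts of the list, 2 of 4 were higher and 1 lower in HCC-LM3 KO, and 1 higher and 3 lower in Huh-7 KO. The shares of all genes were 14% higher and 12.9% lower in HCC-LM3 KO, and 31.7% and 43.2% in Huh-7 KO.

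Among carriers of glucose and lactate, without SLC2A1, 2 of 6 were higher and 1 lower in HCC-LM3 KO, and 2 higher and 3 lower in Huh-7 KO. Beside them, 14% of all genes were higher and 12.9% lower in HCC-LM3 KO, and 31.7% and 43.2% in Huh-7 KO. SLC16A1, a lactate carrier that works in both directions, was lower in both, by −0.98 in HCC-LM3 (adjusted p = 3.13e-08) and −1.64 in Huh-7 (adjusted p = 1.19e-11, and −0.49 with offsets). SLC16A3, the carrier that mainly exports lactate, was higher in both with TMM (0.45 and 1.20), but the HCC-LM3 call ended with offsets (0.19, adjusted p = 0.0503). In Huh-7 it was 0.17 with offsets, −0.37 with TPM, and 0.0875 with library totals, where it did not pass (adjusted p = 0.247). SLC16A7 was lower in Huh-7 KO (−2.64, and −0.37 with offsets, adjusted p = 0.157). SLC2A3, the neuronal-type glucose carrier, had 0 counts in all Huh-7 KO libraries and 6, 1.04 and 3.01 in Huh-7 WT, too few for a fold.

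Gluconeogenic genes were called higher in 3 of 6 cases in HCC-LM3 KO and 5 of 6 in Huh-7 KO, and none was called lower, all with TMM. Over all genes, 14% were higher and 12.9% lower in HCC-LM3 KO, and 31.7% and 43.2% in Huh-7 KO. In Huh-7, mean TPM was lower in KO for G6PC3 (60.1 in KO, 85.9 in WT), SLC37A4 (55.6 in KO, 97.0 in WT), PCK2 (41.9 in KO, 56.7 in WT), FBP1 (2.60 in KO, 3.58 in WT) and PC (44.7 in KO, 175 in WT). Pyruvate carboxylase (PC) was higher by 0.60 in HCC-LM3 KO (adjusted p = 5.98e-05), and its −0.20 in Huh-7 KO did not pass with TMM. PC was lower there with offsets (−0.37, adjusted p = 1.38e-05), library totals (−1.31, adjusted p = 4.12e-12) and TPM (−1.94, adjusted p = 2.58e-10). PCK2, the mitochondrial enzyme that makes phosphoenolpyruvate, was higher in both with TMM (0.55 and 1.16), with −0.43 under TPM in Huh-7. Its cytosolic partner PCK1 was called in Huh-7 KO (2.37, adjusted p = 0.0012) on 6.61 to 36.4 counts in KO and 3.15 to 14.8 in WT, and the call ended with library totals and TPM. In the pentose phosphate pathway, 3 of 7 were higher and 1 lower in HCC-LM3 KO, and 6 higher and 0 lower in Huh-7 KO. These counts too stand beside 14% and 12.9% of all genes in HCC-LM3 KO, and 31.7% and 43.2% in Huh-7 KO. The lactonase PGLS was higher by 0.55 in HCC-LM3 KO and 2.04 in Huh-7 KO, still 0.30 (adjusted p = 0.000515) with offsets and 0.41 (adjusted p = 0.000235) with TPM in Huh-7. The epimerase RPE was lower in HCC-LM3 KO (−0.56, and −0.20 with offsets, which did not pass), and transaldolase (TALDO1) at 1.53 in Huh-7 KO had −0.12 with TPM.

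Of 6 transcription regulators of glycolysis, 1 was lower in HCC-LM3 KO and 4 in Huh-7 KO, beside 12.9% and 43.2% of all genes. None was called higher in either, beside 14% and 31.7% of all genes. HIF1A, the oxygen-regulated subunit of HIF1, had TPM of 5.02, 5.77 and 6.18 in HCC-LM3 KO and 5.71, 9.37 and 12.8 in HCC-LM3 WT. WT replicate 1 lay among the KO values, and the difference of −0.54 (adjusted p = 0.00496) was −0.18 with offsets and did not pass there (adjusted p = 0.266). In Huh-7 HIF1A had 0.54, 0.43 and 0.61 TPM in KO and 11, 11.9 and 12.5 TPM in WT, far apart. Its value of −2.68 (adjusted p = 3.2e-14) was −1.31 with offsets (adjusted p = 3.15e-09), and EPAS1, the HIF2 subunit, had −1.69 (−1.25 with offsets, adjusted p = 3.81e-14). In Huh-7 KO the mRNA of both factors was lower on each scale given, and GAPDH was higher.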

How the data were processed

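Total RNA of HCC-LM3 and Huh-7 cells was sequenced on an Illumina NovaSeq instrument, per the labels' protocols. The authors deposited 1 table that lists, per the file headers, expected counts and TPM by gene for every library, beside the length of each gene. The deposited expected counts were not normalized, and the deposited TPM values summed to 977632 to 998831 per library. Bowtie 0.12.2 and the builds mm8 and mm9 are named in the submitters' processing notes, which are mouse builds, while the gene identifiers are human. No source used here gives the counting tool, strand handling, human build or annotation, so reads shared between gene copies or overlapping genes are uncertain. Of the 9 enzymes with values of their own, 7 (all but PFKL and PGAM1) overlap other annotated genes, each with at most 1.97% as many counts as the enzyme, and PGAM1 and GAPDH have 13 and 62 pseudogene rows.

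For the test, expected counts were rounded and fitted in edgeR 4.0.16 (R 4.3.3): filterByExpr (16537 genes kept), TMM scaling, 1 mean per group and a robust quasi-likelihood fit to 12 libraries (8 residual degrees of freedom), two-sided, Benjamini-Hochberg adjusted over all genes, called under 0.05. The SE came from the F statistic. Alternatives were DESeq2 size factors, library totals, the DESeq2 1.42.0 Wald test, limma 3.58.1 voom, limma-trend on log2(TPM + 1) and log2(TPM + 0.1), no filter, at least 1 CPM in 3 libraries, each line alone, the replicate number as a block, offsets for GC content and length or length alone, and each library left out. TMM-scaled TPM was added after seeing the data. The fits were tested on simulated counts, which had no trend with length or GC content and changed genes in HCC-LM3 KO only. That simulation cannot decide which scale is right for Huh-7. Floors cover counting error only.

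The 10 genes, the lists and the alternatives were chosen with earlier results of these data known. The rule for named genes took every one of the 10 in each contrast, METTL5, and at least the 2 most changed called genes of each list per knockout. Groups and replicate numbers came from the sample labels. Positions, gene types and GC content came from GENCODE 29 on GRCh38, and promoter sequence from RefSeq on GRCh38.p14. Each per-library column bore the name of 1 sample. Some isozymes are not reported here.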

Additional observations from a re-analysis of the deposited data

Results flagged for a closer look

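The KO effect differed between the lines for 7 of the 9 enzymes by the test of the difference itself (edgeR, line by genotype, TMM scaling, adjusted over all genes), in a design of 3 libraries a group. The same test called 61.6% of all genes in either direction, and 23.9% in the direction of these 7. For HK1 the adjusted p was 3.33e-07, with HK1 lower in all 3 HCC-LM3 KO libraries than in HCC-LM3 WT, and with some counts in all 3 Huh-7 KO libraries against 0 in Huh-7 WT. The effect in HCC-LM3 minus that in Huh-7 was −1.47 for GAPDH, −0.97 for PGAM1, −0.89 for GPI, −0.67 for PGK1, −0.67 for ALDOA and −0.67 for ALDOC. The sign of these last 5 changed with TPM, and the GAPDH difference was then −0.0343 and no longer called (adjusted p = 0.587). TMM factors were 0.491 to 0.510 in Huh-7 KO and 1.06 to 1.10 in Huh-7 WT, against 1.27 to 1.31 in HCC-LM3 KO and 1.33 to 1.51 in HCC-LM3 WT, and how far the scaling enters these differences was not tested beyond the alternatives.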

How the results depend on the processing

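Values are log2 fold changes or counts of the 9 enzymes called. With library totals, the Huh-7 KO values were GPI −0.49, PFKL −0.59, PFKP −0.53, ALDOC −0.0633, PGK1 −0.16 and PFKFB4 −0.41. With log2(TPM + 1) they were GPI −1.04, PFKL −1.11, PFKP −0.0761, ALDOA −0.37, ALDOC −0.57, PGK1 −0.78, PGAM1 −0.45, TPI1 −0.43, PFKFB4 −0.65, SLC16A3 −0.37, PCK2 −0.43 and TALDO1 −0.12. With log2(TPM + 0.1) they were GPI −1.04, PFKL −1.12, PFKP −0.37, ALDOA −0.37, ALDOC −0.59, PGK1 −0.79, PGAM1 −0.45, TPI1 −0.46, PFKFB4 −0.87, SLC16A3 −0.38, PCK2 −0.44 and TALDO1 −0.12. Offsets for GC and length gave PFKL −0.12, PFKP −0.0404, ALDOC −0.13 and TIGAR 0.63, and length offsets TIGAR 0.39.

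The difference between the KO effects (HCC-LM3 minus Huh-7) turned positive with library totals for GPI (0.0732), PFKP (0.70), ALDOA (0.29), ALDOC (0.29) and PGK1 (0.28). With log2(TPM + 1) it was GPI 0.78, PFKP 0.25, ALDOA 0.77, ALDOC 0.76, PGK1 0.88 and PGAM1 0.50, and with log2(TPM + 0.1) GPI 0.78, PFKP 0.55, ALDOA 0.78, ALDOC 0.78, PGK1 0.89 and PGAM1 0.50. Both offsets gave PFKP 0.16, ALDOA 0.20 and ALDOC 0.34, length offsets ALDOA 0.0025 and ALDOC 0.0507, and TMM-scaled TPM PFKP 0.18. PFKL was −0.30 with DESeq2 size factors and −0.30 with the DESeq2 Wald test. In WT, TPM plus 1 gave PFKL 0.0305, ALDOA 0.0604 and GAPDH 0.69, TPM plus 0.1 gave 0.0307, 0.0604 and 0.69, and GAPDH was 0.33 with library totals, 0.0363 with TMM-scaled TPM, 0.0091 with no filter, 0.56 with both offsets and 0.14 with length offsets. Leaving out 1 library gave −0.000904 to 0.14 for PFKL and −0.45 to 0.16 for PFKP between the lines, and −0.13 to 0.0258 for GAPDH in WT.

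In HCC-LM3, 2 enzymes were called higher with TPM plus 1, 2 with TPM plus 0.1 and 3 with TMM-scaled TPM, and 2 lower with library totals, either TPM scale or both offsets. In Huh-7, 3 were higher and 3 lower with library totals, 1 and 6 with TPM plus 1, and 2 and 7 with TPM plus 0.1. Between the lines, 4 were higher and 2 lower with library totals, 7 and 1 with either TPM scale, and 2 were higher with both offsets. In WT, 0 were lower with either TPM scale. With 1 library left out, 2 to 7 were higher and 1 to 2 lower in HCC-LM3, 8 to 8 and 0 to 0 in Huh-7, 0 to 0 and 7 to 7 between the lines, and 6 to 6 and 2 to 2 in WT. The cause of these changes was not tested. Counts of calls stayed within 1.5 times of the reported one in the other 168 cases.

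Same-numbered KO and WT libraries had correlations of −0.11 to 0.08 over 6 pairs, and differently numbered ones −0.14 to 0.18. The numbers were not taken as pairs, and whether such libraries shared a culture or day was not tested. With the replicate number as a block, PGK1 in HCC-LM3 was no longer called (0.28, adjusted p = 0.0667), leaving 5 higher, and in Huh-7 neither were LDHA (−1.95) and TPI1 (1.17). Depth limited HK1 and PFKP in Huh-7, with at most 8.18 and 13 counts per library.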
